A study of Mus musculus with 19 samples.

Results

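Zbtb16 and the 4 genes of the SALL family, Sall1, Sall2, Sall3 and Sall4, were examined as targets of the transcription factor SOX3 in the mouse testis. The 5 genes were chosen by name, out of 26182 genes with a curated RefSeq transcript. For each gene, all listed SOX3 peaks were taken that lay within 2 kb of an annotated transcription start site (TSS), in the gene body with its introns, or within 50 kb of the gene. The data were 2 replicates of SOX3 ChIP-seq (58351 and 38832 peaks) and 2 replicates of SOX3 ChIP-nexus (110 and 18 peaks on mouse chromosomes), 4 of the 19 samples that the labels name. All 4 were made from unsorted whole testis at postnatal day 7 (P7), with no treatment or genotype given in the labels, so the lists hold no information on which testis cells carried a peak. According to the methods the mice were of the C57BL/6J background. The labels name SOX3 antibodies from 2 suppliers, for ChIP-seq and ChIP-nexus alike, and do not say whether the replicates came from separate animals. The study's reporting summary describes the 2 replicates of each assay as independent biological replicates. According to the methods, seminiferous tubules of several mice were used. The libraries of the remaining 15 samples (input, ZBTB16, SALL4 or a histone mark) were not analysed here. With 1 group of 2 replicates and no read counts in the lists, no test was made, and every value below is a description of these lists.

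ZBTB16, also called PLZF, is a transcription factor with a BTB domain for protein contacts and a row of zinc fingers for DNA contacts. It marks undifferentiated spermatogonia (uSPG), the germ cells that hold the stem cells of the testis, and helps to maintain them. SALL proteins are zinc finger factors that bind the NuRD complex, which joins histone deacetylation with nucleosome remodelling. SALL4 acts in pluripotent cells and in spermatogonia, SALL1 is known for kidney development, SALL3 for the developing nervous system, and SALL2 is the most divergent member. SOX3 is an HMG-box factor of uSPG that contacts A/T-rich DNA.

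The sequence just before the start sites differed widely within the family. The 250 bases upstream of each annotated start of Sall1 and Sall2 are shown because SOX3 peaks lay at 4 of these 5 starts and not at the remaining one. They come from the RefSeq promoter table (GRCm38.p6, the assembly of mm10) and read 5′ to 3′ along the minus strand, on which both genes lie. Capitals mark each CpG, the dinucleotide at which vertebrate DNA is methylated. Zbtb16, Sall3 and Sall4 had no entry in the table.
Sall1, the first start (chr8:89044163-89044412): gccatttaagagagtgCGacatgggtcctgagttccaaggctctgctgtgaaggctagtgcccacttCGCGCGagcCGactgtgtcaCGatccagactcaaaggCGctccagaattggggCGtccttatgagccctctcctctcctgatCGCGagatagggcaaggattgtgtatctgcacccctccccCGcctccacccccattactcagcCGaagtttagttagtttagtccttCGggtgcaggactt
Sall1, the second start (chr8:89043513-89043762): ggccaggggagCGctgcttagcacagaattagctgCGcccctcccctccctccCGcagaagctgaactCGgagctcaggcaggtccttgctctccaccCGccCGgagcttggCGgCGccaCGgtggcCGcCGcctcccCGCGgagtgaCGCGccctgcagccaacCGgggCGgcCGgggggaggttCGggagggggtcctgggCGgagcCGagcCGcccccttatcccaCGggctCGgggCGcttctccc
Sall1, the third start (chr8:89042863-89043112): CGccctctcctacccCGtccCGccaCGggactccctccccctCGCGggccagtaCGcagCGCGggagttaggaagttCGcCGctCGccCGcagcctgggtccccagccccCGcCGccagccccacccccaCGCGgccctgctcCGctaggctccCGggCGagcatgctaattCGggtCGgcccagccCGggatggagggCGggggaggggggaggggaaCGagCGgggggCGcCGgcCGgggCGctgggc
Sall2, the first start (chr14:52328671-52328920): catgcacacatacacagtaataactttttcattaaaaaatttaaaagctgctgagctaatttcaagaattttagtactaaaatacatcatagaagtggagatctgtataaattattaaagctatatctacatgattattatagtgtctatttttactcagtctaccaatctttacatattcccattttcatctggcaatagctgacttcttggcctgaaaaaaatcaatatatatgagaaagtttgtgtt
Sall2 internal start (chr14:52316324-52316573): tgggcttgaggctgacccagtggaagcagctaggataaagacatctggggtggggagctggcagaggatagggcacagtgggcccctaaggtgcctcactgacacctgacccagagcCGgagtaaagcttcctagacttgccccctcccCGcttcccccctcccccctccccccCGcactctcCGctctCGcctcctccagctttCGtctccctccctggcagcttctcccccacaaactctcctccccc
The upstream windows of Sall1 held 13, 25 and 30 CpGs, more than 68.5%, 89.3% and 94.1% of the 32851 windows in the table. The window of the first Sall2 start held 0 CpGs at a GC content of 28%, and that of the internal start held 6 at 64.4%. The median over the table was 6 CpGs. The consensus bound by SOX factors, WWCAAWG with W for A or T, was sought on both strands. It was in none of these 5 windows and in 21.8% of all windows of the table.

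The second set of sequences is the centre of a pair of peaks upstream of Zbtb16, shown because these were the only peaks of its locus outside the promoter that touched between replicates. Each run is the central 200 bases of the replicate 2 peak, read from the GRCm38.p6 genome along the minus strand, the strand of Zbtb16. Capitals mark the match to WWCAAWG or to its reverse complement.
Zbtb16, nearer upstream peak (chr9:48848119-48848318): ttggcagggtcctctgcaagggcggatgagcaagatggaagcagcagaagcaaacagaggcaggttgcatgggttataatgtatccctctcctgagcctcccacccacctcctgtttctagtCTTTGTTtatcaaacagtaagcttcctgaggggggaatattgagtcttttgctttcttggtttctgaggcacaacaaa
Zbtb16, farther upstream peak (chr9:48860204-48860403): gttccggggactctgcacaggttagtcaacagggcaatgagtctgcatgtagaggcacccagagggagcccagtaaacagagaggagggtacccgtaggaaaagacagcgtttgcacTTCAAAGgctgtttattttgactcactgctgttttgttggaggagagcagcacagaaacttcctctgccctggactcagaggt
Each window held 1 match. Over the whole lists, 16.6% of replicate 1 peaks and 15.3% of replicate 2 peaks held a match in the central 200 bp. The GC contents of these windows were 48.5% and 52%, with 1 and 3 CpGs.

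SOX3 peaks lay at a start site of all 5 genes in replicate 1 and of 4 genes in replicate 2. Zbtb16, Sall1, Sall2 and Sall4 had a promoter peak (within 2 kb of a TSS) in both replicates, and Sall3 had one in replicate 1 alone. Of all 26182 genes, 62.7% had a promoter peak in replicate 1, 54.7% in replicate 2 and 52.2% in both. Promoter peaks are therefore common in these lists, and 4 of 5 genes is a small sample to set against them. The strength of each peak is given by its q score (10 times the negative log10 of the caller's adjusted p-value, kept above 30) and its log2 ratio of ChIP over input. With a q score above 60 required in both replicates, Zbtb16 was the 1 gene of the 5 that kept its promoter peak, against 35.2% of all genes.

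At Zbtb16 (mm10 chromosome 9, 48651797 to 48836225) the 2 curated starts, which open alternative first exons, lay under 1 peak in each replicate. The peak was 3303 bp wide in replicate 1, with a q score of 127 and a log2 ratio of 3.62. In replicate 2 it was 1553 bp wide, with a q score of 102 and a log2 ratio of 3.58. The replicate 2 peak lay wholly inside the wider replicate 1 peak, and their midpoints, 97 and 155 bp upstream of the nearest start, were 58 bp apart. Replicate scores were closer here than at the other promoters of the family. The q score ratio of replicate 1 to replicate 2 was 1.24 at Zbtb16, the lowest of the 11 pairs of touching peaks at the 5 genes, whose median was 2.51 and highest 3.35. Over all 21139 pairs of touching peaks in the lists the median ratio was 1.83, with quartiles of 1.22 and 2.58. Among the 16417 genes with a promoter peak in replicate 1, 40.1% had a lower score than Zbtb16, and among the 14310 such genes in replicate 2, 65.4% did.

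**Figure D1:**
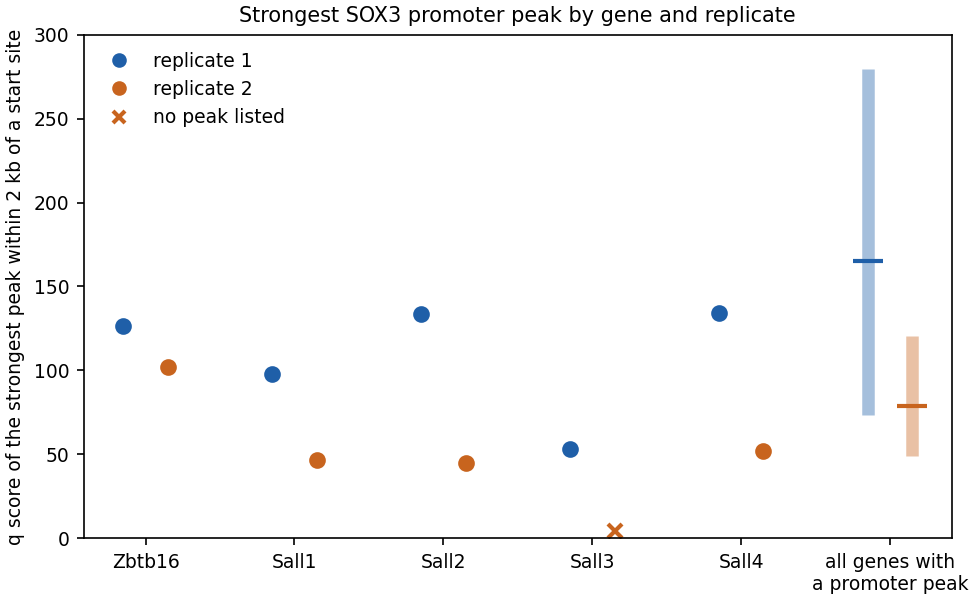
Strongest SOX3 ChIP-seq peak within 2 kb of a start site of each gene, as q score (linear axis), for replicate 1 (blue) and replicate 2 (orange). A cross marks a gene with no listed peak, and the bars at the right span the quartiles, with the median as a line, over all genes that have a promoter peak in that replicate. Zbtb16 has the highest score of the 5 genes in replicate 2 (102), while in replicate 1 Sall4 (134), Sall2 (134) and Zbtb16 (127) lie close together.

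Sall4, the family member known from pluripotent cells and spermatogonia (chromosome 2, 168748332 to 168767201), had a single curated start under a wide peak in both replicates. The replicate 1 peak spanned 2861 bp with a q score of 134 and a log2 ratio of 3.88. The replicate 2 peak spanned 2611 bp with a q score of 52.0 and a log2 ratio of 2.31. These peaks shared 2538 bp and extended mostly into the gene, with midpoints 972 and 774 bp downstream of the start, in the intron of 10111 bp that follows the first exon. The start of Gm14261, annotated as non-coding on the opposite strand, lies within the same 2 kb, so the peak cannot be assigned to 1 of the starts. Of genes with a promoter peak, 42.3% in replicate 1 and 27.7% in replicate 2 had a lower score than Sall4.

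Sall1 (chromosome 8, 89027242 to 89044162) was the gene at which the replicates differed in shape. Its 3 curated starts, which define alternative first exons, all lay under a single replicate 1 peak of 2966 bp, from 89042206 to 89045171, with a q score of 97.9. The log2 ratio of this peak, 4.55, was the highest of the promoter peaks of the 5 genes. In replicate 2 no peak covered any of the 3 starts. Narrow peaks lay on both sides instead, 1 from 89042235 to 89042789 (555 bp, q score 33.3, log2 ratio 1.97) and 1 from 89045309 to 89045988 (680 bp, q score 46.9, log2 ratio 3.73). The first of these lay inside the replicate 1 peak, 73 bp beyond the third start, and the second began 138 bp past its upstream edge. The GC-rich sequence printed above for the 3 starts of Sall1 thus fell in the interval between the replicate 2 peaks.

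Starts with replicate 2 peaks on both sides were not counted separately over the lists. The wider class, with a replicate 2 peak near but not over the start, was uncommon. Of 17192 annotated starts under a replicate 1 peak, 81.03% also lay under a replicate 2 peak, 7.40% had a replicate 2 peak within 2 kb but not over the start, and 11.6% had none within 2 kb. A further Sall1 peak, in the intron of 8953 bp, was found in both replicates. It ran from 89040604 to 89041436 in replicate 1 (q score 49.8) and from 89040627 to 89041189 in replicate 2 (q score 33.8). This peak lies within 2 kb of the third start of Sall1 and within 2 kb of the start of Gm3134, annotated as non-coding on the opposite strand. The Gm3134 start also lies within 2 kb of the wide replicate 1 peak over the Sall1 starts. The same holds for the replicate 2 peak inside that wide peak. These peaks therefore cannot be assigned to 1 of the 2 genes.

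**Figure D2:**
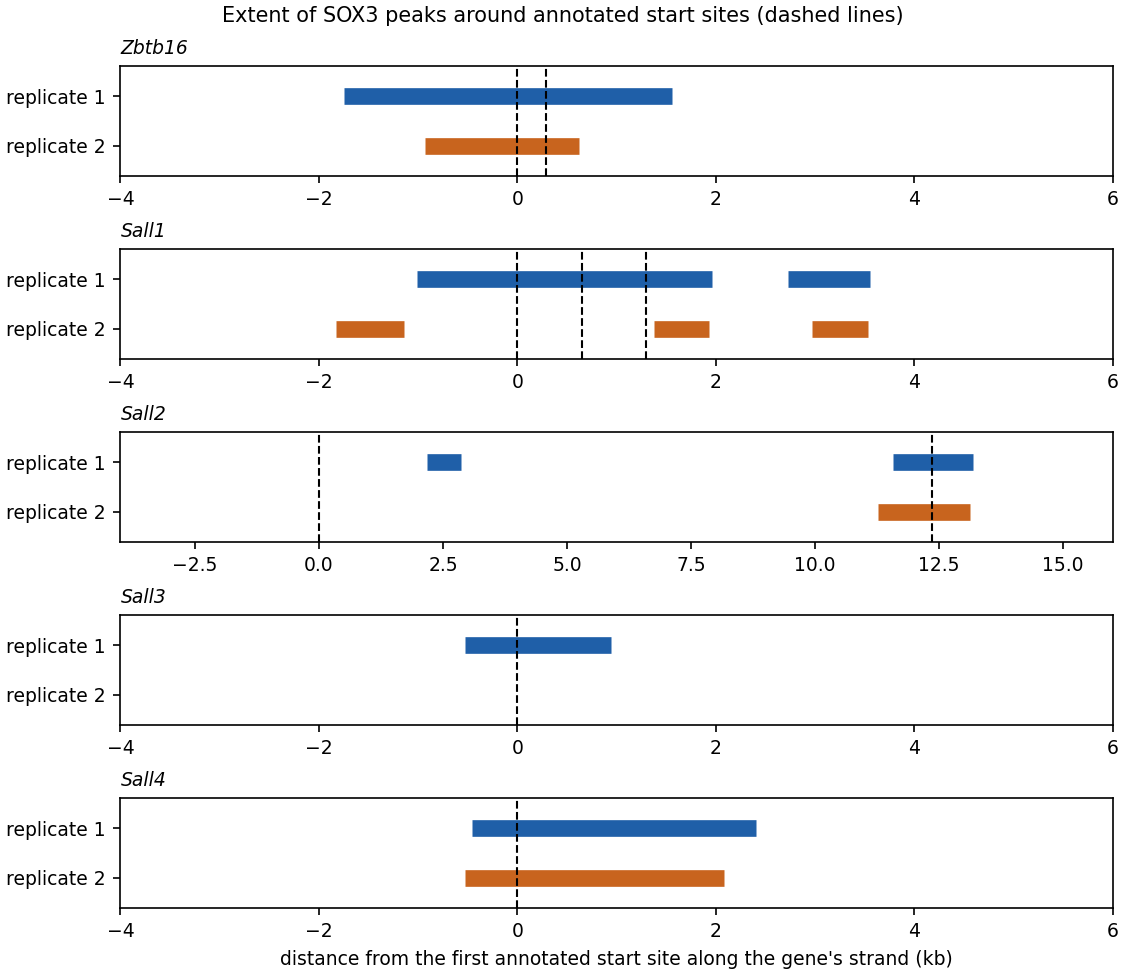
Extent of every SOX3 ChIP-seq peak around the start sites of the 5 genes, as distance in kb from the first annotated start along the gene's strand (negative is upstream), with replicate 1 in blue above replicate 2 in orange. Dashed lines are the curated start sites, and the Sall2 panel covers a longer stretch. At Sall1 the 3 starts lie under 1 peak of replicate 1 and between peaks of replicate 2.

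At Sall2 (chromosome 14, 52311177 to 52328670) the occupied start was the internal one. A peak covered the start at 52316323 in both replicates, from 52315486 to 52317097 in replicate 1 (q score 134, log2 ratio 3.68) and from 52315558 to 52317394 in replicate 2 (q score 44.7, log2 ratio 2.19). The first start of the gene, at 52328670, had no peak within 2 kb in either replicate. The nearest replicate 1 peak, with a q score of 35.7, ended 2170 bp from it, and the nearest replicate 2 peak was the one over the internal start, 11276 bp away. The unoccupied start is the one whose window printed above held 0 CpGs.

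Sall3 (chromosome 18, 80966989 to 80987021) had the lowest value when the strongest promoter peak of each gene in replicate 1 was compared. The peak spanned 1474 bp over the single curated start in replicate 1, from 80986075 to 80987548, with a q score of 53.05 and a log2 ratio of 2.90. The start of Gm27239, annotated as non-coding on the opposite strand, lies within the same 2 kb. No replicate 2 peak came nearer than 31113 bp. A replicate 1 score of this size was often not matched. Of 3311 genes whose strongest promoter peak in replicate 1 scored 30 to 60, 39.5% had a promoter peak in replicate 2, against 74.5% for scores of 60 to 100, 92.5% for 100 to 150 and 99.4% above 150.

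The base composition of the starts was then set beside occupancy. In the 500 bp around each start, a site was called CpG-rich where GC content exceeded 55% and the CpG observed/expected ratio exceeded 0.75. Of all CpG-rich starts, 91.7% had a peak within 2 kb in both replicates, against 34.1% of the other starts. The 5 genes had 9 curated starts, of which 2 were CpG-rich, the single start of Sall3 (GC 80.4%, ratio 1.11) and the third start of Sall1 (GC 72.2%, ratio 0.906). The Sall3 start, the most CpG-rich of the 9, was the one with a peak in replicate 1 alone. Of 9406 CpG-rich starts under a replicate 1 peak, 4.76% had no replicate 2 peak within 2 kb.

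Of the 7 starts in the other class, 6 had a peak in both replicates. Zbtb16 had ratios of 0.723 and 0.684, and the first and second Sall1 starts of 0.739 and 0.664. Sall4 had a ratio of 0.657 and the internal Sall2 start of 0.553. All 6 lay below the median of 0.792 for starts with a peak in both replicates. The first Sall2 start, with a ratio of 0.288 at a GC content of 37.6%, lay nearer to the median of 0.207 for starts with no peak. The class limits matter here. The first starts of Sall1 (GC content 59%) and Zbtb16 (72.2%), among others, missed the CpG-rich class by their ratio alone.

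**Figure D3:**
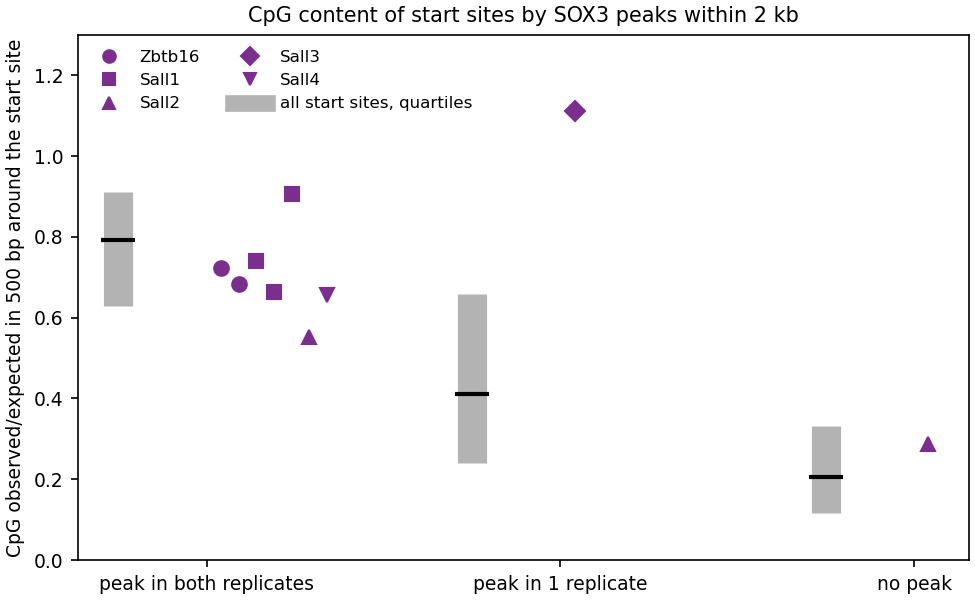
CpG observed/expected ratio in the 500 bp around each curated start of the 5 genes (purple symbols, 1 shape for each gene), placed by whether a SOX3 peak lay within 2 kb in both replicates, in 1 replicate or in neither. Grey bars are the quartiles and black lines the medians over all 31601 annotated starts. The Sall3 start has the highest ratio (1.11) and a peak in 1 replicate, and the unoccupied Sall2 start has the lowest (0.288).

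Peaks inside the genes, introns included, were counted next. All 5 genes had a gene body peak in replicate 1, against 66.3% of all genes, and 4 of the 5 in replicate 2, against 59.3%. In both replicates this held for the same 4 genes (all but Sall3), against 56.8%. Summed over the 5 genes there were 15 body peaks in replicate 1 and 8 in replicate 2 (mean 11.5 ± 4.95 (SD, n = 2)), of which 9 and 3 lay away from the promoters. None of these 9 and none of these 3 was found in the other replicate, where found means that a single peak covered at least 50% of the length. Over the whole lists, 11.9% of replicate 1 peaks and 28.4% of replicate 2 peaks away from any annotated start were found in the other replicate.

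Zbtb16 held most of these, being the longest of the 5 genes at 184429 bp. Away from its promoter it had 8 body peaks in replicate 1, with q scores from 31.1 to 62.6, and 2 in replicate 2, with q scores of 39.2 and 43.8. All were intronic. The intron of 88181 bp from 48743562 to 48831742 held 6 of the replicate 1 peaks and both replicate 2 peaks, and the intron of 26094 bp next to it held the other 2. An intron of 51957 bp further downstream, 28.2% of the gene, held none in either replicate. The nearest approach between replicates inside these introns was a gap of 671 bp, between a replicate 1 peak at 48760044 to 48760599 and a replicate 2 peak at 48761270 to 48762164.

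Long genes collect more peaks, so the Zbtb16 counts were set beside other long genes. Over the 2522 genes of 100 kb or more, the median number of body peaks was 3 in replicate 1 and 2 in replicate 2. Zbtb16, with 9 and 3 body peaks when its promoter peak is counted, was above 81.5% of them in replicate 1 and above 58.8% in replicate 2. Per 10 kb of gene body this was 0.488 and 0.163 peaks, against 0.192 and 0.123 for the long genes summed. Per 10 kb, the 2 replicates of Zbtb16 lay further apart than either lay from the value of the long genes.

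Within the gene body and 50 kb to either side, the 5 genes had 36 peaks in replicate 1 and 23 in replicate 2 (mean 29.5 ± 9.19 (SD, n = 2)). Every gene had at least 1 such peak in each replicate, as did 82.9% of all genes in replicate 1, 79.8% in replicate 2 and 78% in both. The balance between replicates differed from gene to gene. Zbtb16 had 16 and 5 peaks, Sall4 10 and 6, Sall3 4 and 2, and Sall2 4 and 3, in replicates 1 and 2. Sall1 alone went the other way, with 2 and 7. The whole lists had a ratio of 1.503.

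**Figure D4:**
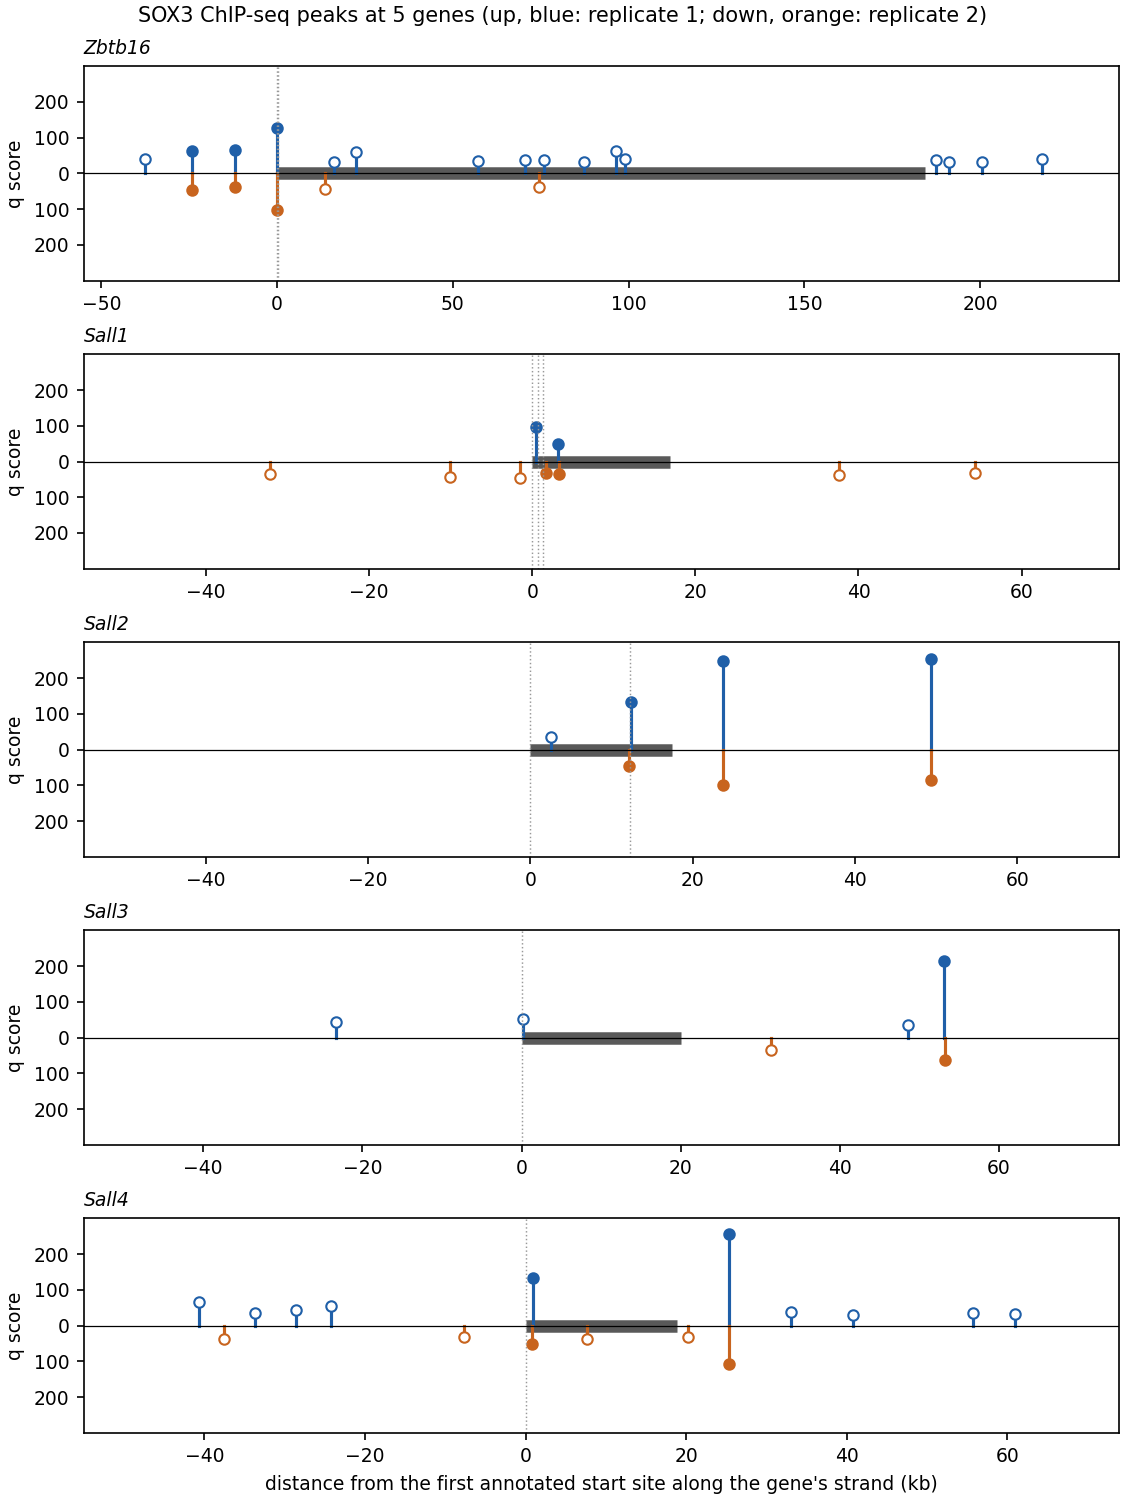
Every SOX3 ChIP-seq peak in the body (grey bar) or within 50 kb of the 5 genes, at the distance of its midpoint from the first annotated start along the gene's strand (kb), with its q score upward for replicate 1 (blue) and downward for replicate 2 (orange). Filled points touch a peak of the other replicate, open points do not, and dotted lines are start sites. The tallest bars at Sall2, Sall3 and Sall4 stand at starts of neighbouring genes, and most low bars are open.

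The strongest peaks near Sall2, Sall3 and Sall4 were not their own. Downstream of Sall2, a peak over the curated start of Mettl3, which encodes the catalytic subunit of the m6A RNA methyltransferase, scored 248 in replicate 1 and 99.01 in replicate 2. A further peak, over the starts of Rab2b and Tox4, scored 254 and 85.4. Near Sall3 the strongest peak lay over the start of Atp9b, a P4-type ATPase gene, with q scores of 215 and 64.0, where the Sall3 promoter had 53.05 and no peak. Near Sall4 the strongest peak lay over a start of Atp9a, a relative of Atp9b, with q scores of 255 and 108, against 134 and 52.0 at the Sall4 promoter. Each of these 4 peaks was found in both replicates, with midpoints at most 89 bp apart.

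At Zbtb16 and Sall1, by contrast, no peak in the 50 kb on either side scored above the strongest peak at the gene's promoter. Away from any annotated start, a pair of upstream Zbtb16 peaks was the one further finding shared by the replicates. The nearer peak ran from 48847712 to 48848787 in replicate 1 (q score 66.2, log2 ratio 3.64) and from 48847906 to 48848532 in replicate 2 (q score 36.5, log2 ratio 1.97). The farther peak ran from 48859836 to 48860850 (q score 64.0, log2 ratio 2.92) and from 48859211 to 48861398 (q score 46.9, log2 ratio 3.73). Their midpoints lay 12024 and 24118 bp upstream of the first start in replicate 1, and 11994 and 24079 bp in replicate 2. The next gene on that side, Htr3a, which encodes a serotonin receptor subunit, lies 62988 bp from Zbtb16.

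In all, 9 of the 36 replicate 1 peaks at the 5 genes (25%, exact binomial 95% interval 12.1% to 42.2%) were found in replicate 2, against 25.1% of all replicate 1 peaks. Of the 23 replicate 2 peaks, 10 (43.5%, interval 23.2% to 65.5%) were found in replicate 1, against 48.4% of all. Of the peaks found, 4 in each replicate lay at starts of neighbouring genes. The 50% rule counted some wide peaks as not found although each held a whole peak of the other replicate. In replicate 1 these were the Zbtb16 promoter peak (47.0% covered) and the peak over the Sall1 starts (18.7%). In replicate 2 the farther upstream Zbtb16 peak (46.4%) was such a case. The intervals cover counting over peaks only. All 11 touching pairs scored higher in replicate 1, as did 86.3% of the touching pairs in the whole lists.

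**Figure D5:**
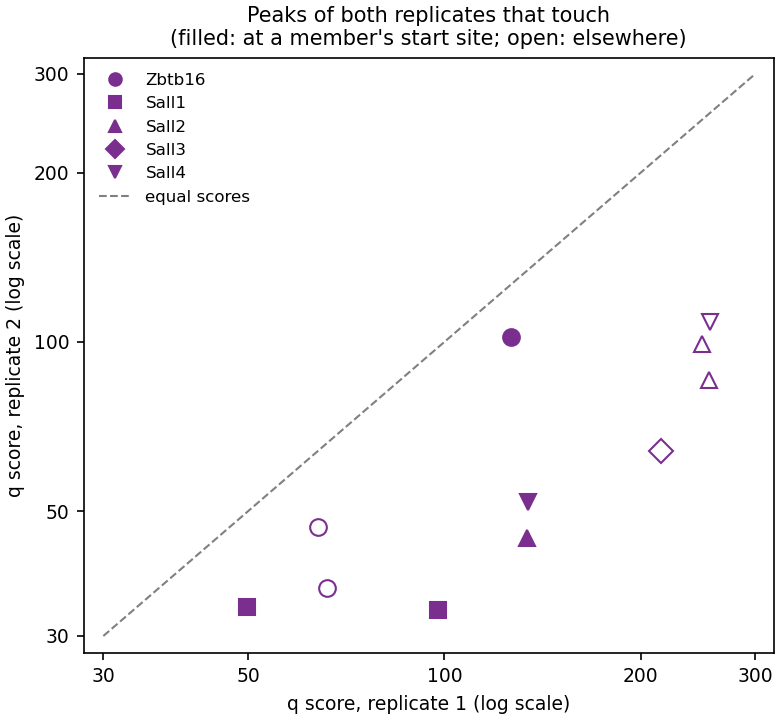
q scores of the 11 pairs of touching SOX3 peaks at the 5 genes, replicate 1 against replicate 2, on log axes with the line of equal scores dashed. Filled symbols are peaks within 2 kb of a start of 1 of the 5 genes and open symbols are the other peaks. All 11 lie below the line, with the Zbtb16 promoter (127 and 102) and the farther upstream peak of Zbtb16 (64.0 and 46.9) closest to it.

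Most peaks of each list shared their exact scores with other peaks. Each of the 36 and 23 peaks at these genes shared its exact pair of q score and log2 ratio with at least 1 other peak of the same list, as did 98.7% and 98.6% of all peaks. The replicate 2 peak upstream of the Sall1 starts and the farther upstream peak of Zbtb16, for example, had the same q score (46.9) and log2 ratio (3.73). Peaks of 1 list with equal q scores were given the same rank, so rank cannot order them.

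The SOX consensus WWCAAWG was sought on both strands in the central 100 bp of each peak. It was in none of the 36 replicate 1 peaks (exact binomial 95% interval 0 to 9.74%), against 8.44% of all replicate 1 peaks. It was in 5 of the 23 replicate 2 peaks (21.7%, interval 7.46% to 43.7%), against 7.80% of all. All 5 lay away from any annotated start. They were both upstream peaks of Zbtb16, which carry the matches printed above, and 3 peaks around Sall1 that no replicate 1 peak touched, named here after their values were seen. In the whole peak rather than its centre, the consensus was in 72.2% and 60.9% of peaks at these genes, against 57.7% and 52.7% of all. As before, both intervals cover counting over peaks only, and peaks of 1 list are not replicates.

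At the upstream Zbtb16 peaks the same matches were counted differently in the replicates. The central match of the nearer peak lay 26 bp from the replicate 2 midpoint and 56 bp from the replicate 1 midpoint. That of the farther peak lay 21 bp and 60 bp away. The same 2 matches were therefore inside the central 100 bp in replicate 2 and just outside it in replicate 1. Promoter peaks of the 5 genes held no match in their central 100 bp in either replicate. In whole promoter peaks, matches at the same position in both replicates were 1 each at Zbtb16, Sall1 and Sall2, 505, 1521 and 11609 bp downstream of the first start, and 4 at Sall4, the nearest -40 bp from its start (upstream).

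ChIP-nexus, which adds an exonuclease step that trims precipitated DNA up to the bound protein, gave no peak at these genes. None of the 110 and 18 listed regions lay within 50 kb or 100 kb of any of the 5 genes. The nearest was 7.39 Mb from Zbtb16 in replicate 1 and 13.3 Mb in replicate 2, and those nearest to the SALL genes lay at least 32.9 Mb away. With so few regions in the lists, the absence of a region at a gene says little about the gene.

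Gene families around the 5 genes were counted in the same way. Of 47 other genes for zinc finger proteins with a BTB domain, the family of Zbtb16, 45 had a promoter peak in both replicates, against 52.2% of all genes, and 2 in 1 replicate. The median of their strongest promoter q scores was 257 in replicate 1 and 107 in replicate 2, so Zbtb16, at 127 and 102, lay below both. All genes with a promoter peak had medians of 165 and 78.8. The strongest by mean rank were Zbtb37, with q scores of 602 and 265, Zbtb2, with 510 and 265, and Zbtb1 and Zbtb25, which share 1 peak (571 and 218). The 2 with a peak in replicate 1 alone, named here after their values were seen, were Zbtb20 (q score 31.05) and Zbtb32 (51.8). Of all CpG-rich starts, 91.7% had a peak within 2 kb in both replicates, and the CpG class of the 47 genes was not counted.

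A list of 27 genes held SOX3 itself, subunits of NuRD, a Polycomb subunit and genes taken as study targets of ZBTB16 or SALL4. Of these, 25 had a promoter peak in both replicates, again against 52.2% of all genes. The paper reports that most SOX3-bound genes are also bound by ZBTB16. Whether the choice of these genes affected this share was not tested. The median of their strongest scores was 209 and 85.7. By the mean of the ranks in both replicates, the first 3 were NuRD subunits, Mbd3 (a methyl-CpG-binding domain protein, 848 and 314), Rbbp4 (a histone chaperone, 458 and 243) and Mta2 (388 and 160.0). Rhox10, a homeobox gene on the X chromosome, had no promoter peak in either replicate, and its nearest peaks lay 54322 and 122889 bp away. Lhx1, also named after its values were seen, had one in replicate 1 alone (q score 44.7). Every promoter peak of a SALL gene scored below the median of this list in its replicate.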

How the data were processed

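SOX3 ChIP-seq and ChIP-nexus of P7 testis were analysed from peak lists, 1 per replicate. According to the methods, the authors aligned ChIP-seq reads to mm10 with Novoalign, placing reads with several matches at random, removed duplicates with Picard and called peaks against input with USeq. The deposited ChIP-seq tables lack a header, so the column names are inferred: a score (10 times the negative log10 of the p-value and of the adjusted p-value, the latter kept above 30) and a log2 ratio of ChIP over input. The deposited ChIP-nexus lists, in MACS2 2.1.1 format, give fold enrichment, −log10 p and −log10 q. The control of the ChIP-nexus calls is not given in the sources used here. The lists give no read depth. The study's reporting summary gives fewer unique reads for replicate 1 of SOX3 ChIP-seq than for replicate 2. It gives far fewer for both SOX3 ChIP-nexus libraries than for either ChIP-seq library.

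Peaks were assigned with Python 3.11.15 to RefSeq genes of GRCm38.p6 (gene bodies and starts of curated transcripts), on any overlap with 2 kb around a start, the body, or 50 kb around it. A peak was found in the other replicate when 1 peak covered at least 50% of it. The overlap code was checked against bedtools and tested on simulated data. The genes and lists were chosen with earlier results of these data known. The text gives every peak within 2 kb of a start and, per gene, at most 5 further peaks found in both replicates, ranked by q score. List genes are named for the 3 strongest promoter peaks by mean rank or for having none, and the 3 with a promoter peak in 1 replicate were named after their values were seen. Alternatives covered the q score, windows, midpoints, annotation (GENCODE or all RefSeq transcripts), overlap, motif and each replicate left out.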

Additional observations from a re-analysis of the deposited data

How the results depend on the processing

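No test was made, so the counts and shares themselves were recomputed. No paired analysis was possible because no result comes from a test. Of 37 alternative values of the main results, 31 stayed within the limits set (1.5 times for counts, 1 SD or the 95% interval for shares). Some of these could not leave the limits. With 2 replicates, the consensus share of either one always lies within 1 SD of the mean. The count of 4 genes could rise to at most 5 when a replicate was left out or the promoter window widened. A q score above 60 left 1 gene of the 5 with a promoter peak in both replicates, 3 body peaks and 8.5 locus peaks per replicate. This limit left 5 replicate 2 locus peaks, 4 of them at starts of neighbouring genes. All of these 5 (100%) were found in replicate 1. A 20 kb flank left 19 locus peaks. The consensus was in 66.5% of whole peaks, against 10.9% in the central 100 bp. Leaving out each replicate gave 4 to 5 genes with a promoter peak, 8 to 15 body peaks, 23 to 36 locus peaks and a consensus share of 0 to 21.7%. The 4 genes did not change in number with promoter windows of 1 kb or 5 kb, peak midpoints, GENCODE or all RefSeq transcripts. For single genes, 42 of 60 alternative values stayed within the limits, and the 18 others came from the q score or the locus window.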
